A study of Mus musculus with 6 samples.

Results

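The 40 genes described here encode the machinery of cell division: mitotic cyclins and kinases, the spindle checkpoint, kinetochore proteins, kinesin motors, and proteins of spindle assembly and cytokinesis. They were chosen by name, with earlier results of these data known. Shares of all genes set beside counts of members are therefore description and not a test. Each symbol was matched to its Ensembl identifier in the count tables. All 40 were found, among 37991 genes in all. They were measured by RNA sequencing of bulk mouse tissue in 3 groups of 2 libraries each. The tumours were primary tumours of TgAlbCreKap1lox mice, in which a floxed Kap1 gene is deleted by Cre recombinase driven by the albumin promoter, which is active in hepatocytes. The KAP1-deleted livers were liver tissue of mice of the same genotype, and the mouse codes place tumour 1 with KAP1-deleted liver 1 in the same mouse, and likewise tumour 2 with KAP1-deleted liver 2. The control livers came from TgAlbCre mice, which carry the Cre transgene and, as far as the labels say, no floxed Kap1. A high-fat diet was given to every mouse for 27 weeks, and tissue was taken at an age of 35 weeks, so the diet and the Cre transgene are shared by every group. Endothelial, blood and stellate cells of the liver do not use the albumin promoter and keep Kap1. KAP1, encoded by Trim28, is a co-repressor of transcription that zinc finger proteins bring to DNA.

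Dividing cells condense their chromosomes, attach them through kinetochores to a spindle of microtubules, hold anaphase back until every chromosome is attached, and then cleave in cytokinesis. Kinesins are motors that slide, cross-link or depolymerise the microtubules of the spindle. In quiescent cells many of these genes are kept silent by the DREAM complex, and in late S phase, G2 and mitosis they are transcribed under B-MYB, MuvB proteins and FOXM1. Most hepatocytes of the adult liver are quiescent, and mitotic transcripts return in regeneration and in liver tumours.

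Promoters of mitotic genes are known for 2 short motifs, the cell cycle genes homology region (CHR, searched as TTTGAA or TTCGAA), through which DREAM and MuvB proteins bind, and the CCAAT box (searched as CCAAT), bound by NF-Y. RefSeq promoter windows of 300 bases (GRCm38.p6, 250 before to 50 after the annotated start) were matched for 34 of the 40 genes, with 36 windows in all. The windows shown are of genes whose tumour values are described below. They are 150 bases up to the start, with CHR and CCAAT boxes of either strand in capitals, so that ATTGG is a CCAAT box and TTCAAA a CHR of the other strand.
Cdk1, chr10:69352913-69353062, minus strand: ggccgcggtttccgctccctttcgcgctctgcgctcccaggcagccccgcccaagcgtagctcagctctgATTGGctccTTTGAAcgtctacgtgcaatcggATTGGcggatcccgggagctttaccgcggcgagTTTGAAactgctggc
Ccnb1, chr13:100786487-100786636, minus strand: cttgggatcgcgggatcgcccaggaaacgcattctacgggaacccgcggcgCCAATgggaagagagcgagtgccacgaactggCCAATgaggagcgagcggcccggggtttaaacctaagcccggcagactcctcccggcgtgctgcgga
Cdc20, chr4:118437344-118437493, minus strand: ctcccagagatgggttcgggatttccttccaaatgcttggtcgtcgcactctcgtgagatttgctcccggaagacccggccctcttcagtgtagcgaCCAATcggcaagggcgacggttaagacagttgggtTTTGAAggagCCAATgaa
Kif11, chr19:37376232-37376381, plus strand: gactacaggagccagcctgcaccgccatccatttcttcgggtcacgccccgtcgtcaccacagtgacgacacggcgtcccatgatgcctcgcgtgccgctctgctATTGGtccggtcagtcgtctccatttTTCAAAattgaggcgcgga
Prc1, chr7:80294326-80294475, plus strand: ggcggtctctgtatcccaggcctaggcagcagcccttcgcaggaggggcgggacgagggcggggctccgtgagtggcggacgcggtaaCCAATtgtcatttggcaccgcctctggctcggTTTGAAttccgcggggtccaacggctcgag
Top2a, chr11:99024190-99024339, minus strand: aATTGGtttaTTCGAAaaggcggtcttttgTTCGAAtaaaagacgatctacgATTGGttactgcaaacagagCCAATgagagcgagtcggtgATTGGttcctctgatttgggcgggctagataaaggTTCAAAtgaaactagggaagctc
Birc5, chr11:117849087-117849236, plus strand: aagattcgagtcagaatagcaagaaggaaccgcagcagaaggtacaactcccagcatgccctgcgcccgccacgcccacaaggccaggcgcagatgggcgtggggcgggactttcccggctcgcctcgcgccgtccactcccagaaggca
In the letters searched, Cdk1, Cdc20, Kif11, Prc1 and Top2a show both motifs, Ccnb1 shows a pair of CCAAT boxes and no CHR, and Birc5 shows neither. Other forms of the CHR were not searched. A CHR stood in 30 of the 36 windows (83.3%), against 19.2% of all 32851 RefSeq promoter windows of the same length. Within 50 bases of the start, on either side, a CHR stood in 75% of the members' windows, against 5.31% of all windows. A CCAAT box stood in 27 windows (75%), against 37.4% of all windows. Both motifs stood in 25 windows (69.4%), against 7.52% of all windows. At least 2 CCAAT boxes stood in 47.2% of the members' windows and in 11.7% of all windows. E2F motifs (TTCCCGC or TTGGCGC) were in 6 windows (16.7%), against 6.81% of all windows. All were searched on both strands, and different motifs overlapped in 4 of the members' windows. By gene, 28 of the 34 had a CHR and 25 had a CCAAT box. Nuf2, Nusap1, Mad2l1 and Birc5 had neither in their windows. Birc5 and Mad2l1 are among the 8 members not called in tumour over KAP1-deleted liver, and Nuf2 and Nusap1 are among the 32 called higher. These matches describe the letters in the windows and are neither sites shown to be used nor causes of the levels.

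**Figure D1:**
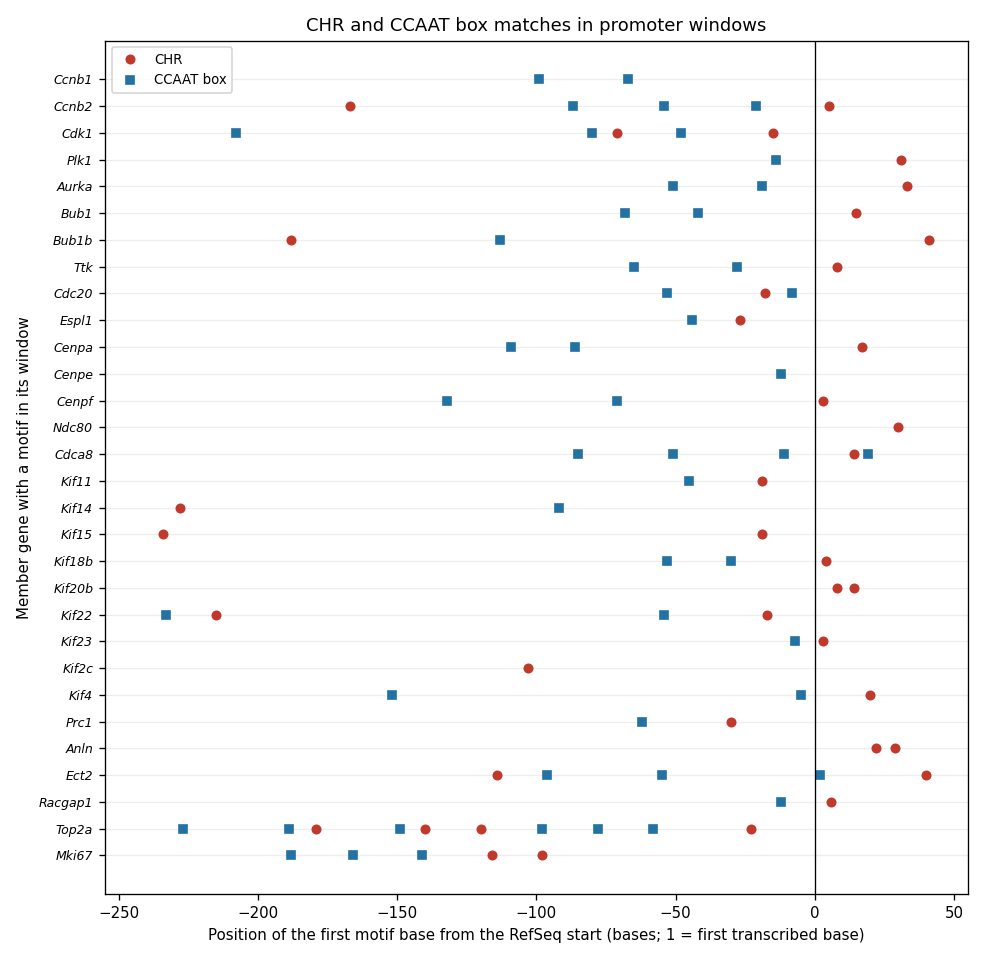
Positions of CHR (circles) and CCAAT box (squares) matches in the promoter windows of the 30 members with at least 1 of them, in bases from the RefSeq start, with 1 window drawn for Ect2 and Prc1, which have several. CHR matches lie mostly within 50 bases of the start and CCAAT boxes mostly within 100 bases before it.

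The libraries held 39723997 to 62178752 counts in genes. Trim28, the deleted gene, had 5.22 and 4.59 CPM (counts relative to the size of the library, with TMM scaling) in the tumours, 5.06 and 6.02 CPM in the KAP1-deleted livers and 32.5 and 35.9 CPM in the control livers, where values of a group are for library 1 and then 2. It fell by 2.80 ± 0.19 on the log2 scale in tumour over control liver (SE, adjusted p = 0.000433) and by 2.63 ± 0.19 in KAP1-deleted over control liver (adjusted p = 0.00393). A first principal component with 64.2% of the variance parted the tumours from the 4 livers. Entries that name no gene took 36.7% and 33.1% of the counted reads in the tumours, 24.8% and 20.9% in the KAP1-deleted livers and 27.6% and 20.9% in the control livers. TMM factors were 1.31 and 1.22 in the tumours, 0.864 and 0.878 in the KAP1-deleted livers and 0.872 and 0.948 in the control livers. Of 17558 genes tested with edgeR's quasi-likelihood test, 2007 were called (Benjamini-Hochberg adjusted p under 0.05) in tumour over KAP1-deleted liver, 2443 in tumour over control liver and 59 in KAP1-deleted over control liver.

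The mitotic genes took few of these counts. Their 40 counts summed to 10394 and 11070 in the tumours, 1709 and 2064 in the KAP1-deleted livers and 1288 and 2544 in the control livers. The lowest single count of a member was 28 in the tumours and 1 in the livers, for Foxm1 in control liver 1. All 40 passed the filter on low counts across the 6 libraries. In the 4 livers alone 39 would have passed, and Kif18b passed only through the tumours, the group where it is high. Without Kif18b, the counts called higher that follow are 31 of 39 over KAP1-deleted liver and 33 of 39 over control liver. Counting error is therefore wide for single members in liver.

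Tumour over KAP1-deleted liver asks what differs between a tumour and liver tissue of the same mouse, both without KAP1 in hepatocytes. All 40 mitotic genes had higher levels in both tumours than in both KAP1-deleted livers. The same held for 28.7% of all genes tested, and 34.8% were lower in both, among them no member. Of the 40, 32 rose past the threshold and none fell, against 4.80% of all genes called higher and 6.64% called lower. The numbers called higher were 33 with DESeq2 and 31 with limma-voom, which called 2839 and 2028 of all genes in either direction. In edgeR 38 had an unadjusted p under 0.05, as had 5104 of all 17558 genes tested in either direction. The median log2 fold change of the members was 2.11, with a range of 0.48 to 3.67, beside a median of -0.03 over all genes tested. Summed over the 40, the level was 144 and 211 CPM in the tumours, 38.8 and 43.7 CPM in the KAP1-deleted livers and 37.2 and 43.2 CPM in the control livers. The ratio of tumour to liver within a mouse was 3.70 in mouse 1 and 4.82 in mouse 2. In bulk tissue, more dividing cells and more of these transcripts per dividing cell cannot be told apart. Leaving out tumour 2 or KAP1-deleted liver 1 left 19 members called, leaving out KAP1-deleted liver 2 left 20, leaving out tumour 1 left 24 and leaving out either control liver left 33. Fitting only the 2 mice with both tissues, with the mouse as a block, called 38 members on 1 residual degree of freedom. That fit called 4476 genes in all, against 2007 in the main fit. The adjusted p-values given below with the mouse as a block come from it. No member's fitted log2 fold change fell below 0 under any alternative run, the lowest being 0.21 for Birc5, and 17 members were called under each one that could be run for them.

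**Figure D2:**
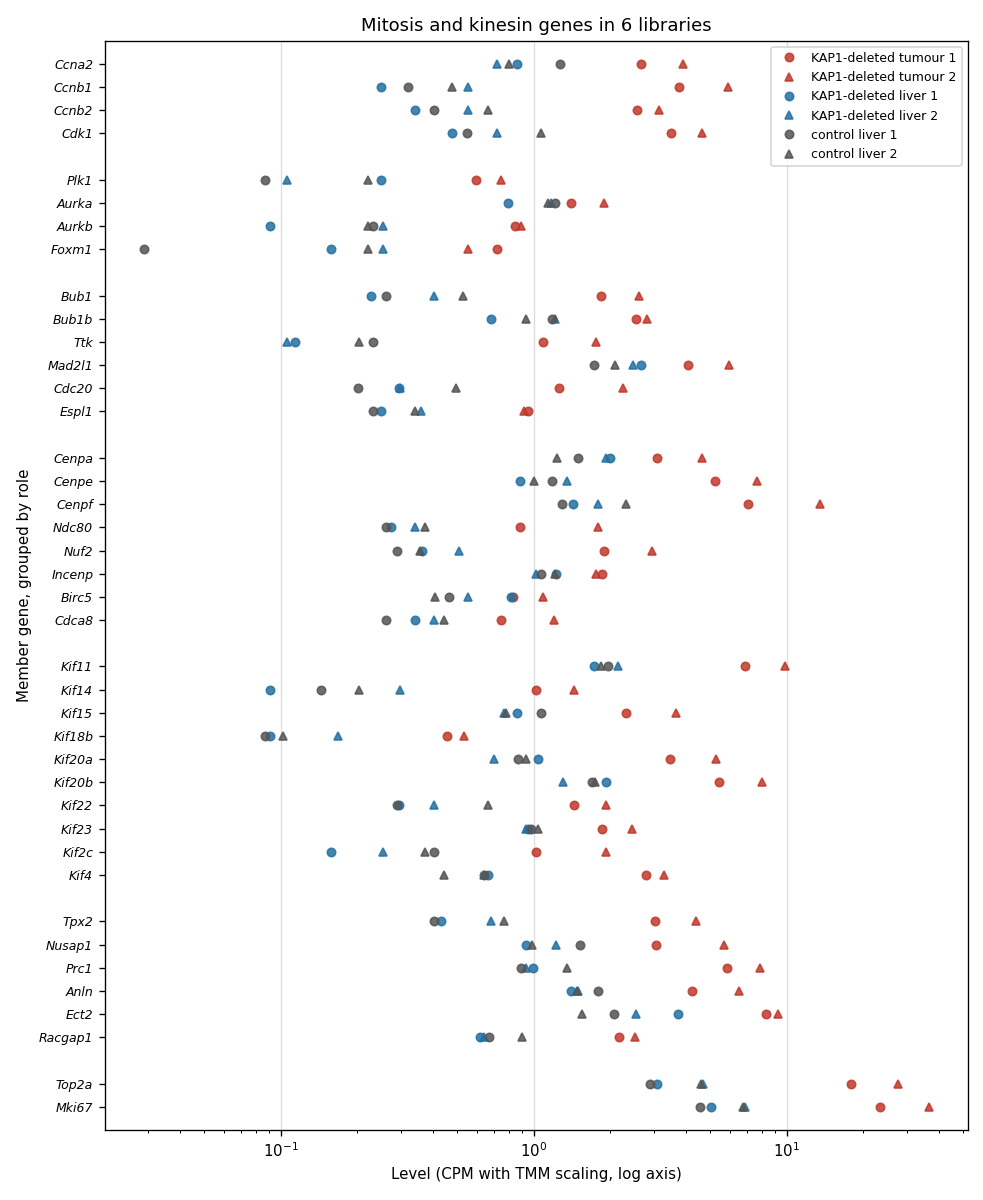
Level of each of the 40 genes (rows, grouped by role) in every library, in CPM with TMM scaling on a log axis, with circles for library 1 and triangles for library 2 of a group. Both tumours (red) lie right of all 4 livers in every row, most narrowly for Birc5 and Aurka, and the KAP1-deleted (blue) and control (grey) livers overlap in all but 10 rows.

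The cyclins and CDK1 form the kinase that drives entry into mitosis. All 4 rose in tumour over KAP1-deleted liver, with a median log2 fold change of 2.71. Ccnb1 (cyclin B1) had 3.76 and 5.88 CPM in the tumours, against 0.25 and 0.551 CPM in the KAP1-deleted livers and 0.318 and 0.475 CPM in the control livers. Both tumours stood far above the 4 livers, whose groups overlapped each other. Its log2 fold change over KAP1-deleted liver was 3.57 ± 0.45 (SE, adjusted p = 0.00409), a 11.9-fold rise. Cdk1, the catalytic partner, had 3.48 and 4.65 CPM in the tumours, against 0.477 and 0.72 CPM in the KAP1-deleted livers and 0.548 and 1.07 CPM in the control livers. The tumours were again the 2 highest libraries, and control liver 2 was the highest liver. Cdk1 rose by 2.75 ± 0.40 (SE, adjusted p = 0.0071) on the log2 scale. Ccnb2 (cyclin B2) had 2.57 and 3.14 CPM in the tumours, against 0.341 and 0.551 CPM in the KAP1-deleted livers and 0.404 and 0.662 CPM in the control livers, with no overlap between tumours and livers. Its log2 fold change was 2.67 ± 0.39 (SE, adjusted p = 0.00707). Ccna2 (cyclin A2), which acts from S phase into mitosis, had 2.65 and 3.88 CPM in the tumours, against 0.863 and 0.72 CPM in the KAP1-deleted livers and 1.27 and 0.798 CPM in the control livers. Control liver 1 was its highest liver, and its log2 fold change over KAP1-deleted liver was 2.04 ± 0.36 (SE, adjusted p = 0.0125). Over its alternatives the adjusted p of Ccna2 ran from 1.21e-07 to 0.075, and the call was lost without tumour 2 (0.0549) or KAP1-deleted liver 2 (0.075). Only 72.3% of the 31-base words of Ccnb1 occur in no other gene of the reference transcripts, so its counts may hold reads of related copies. The exons of Ccna2 overlap those of Exosc9 on the other strand over 12.5% of their length, and the sources used here do not say whether the counting used strand.

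Of the mitotic kinases and FOXM1, 1 of 4 passed the test. Aurkb (Aurora B, the kinase of the chromosomal passenger complex) had 0.842 and 0.895 CPM in the tumours, against 0.0908 and 0.254 CPM in the KAP1-deleted livers and 0.231 and 0.221 CPM in the control livers. Both tumours exceeded every liver, and its log2 fold change over KAP1-deleted liver was 2.30 ± 0.50 (SE, adjusted p = 0.0264). The call of Aurkb was lost without tumour 1 (0.0992), tumour 2 (0.0904) or KAP1-deleted liver 1 (0.144), and its adjusted p over the alternatives spanned 6.28e-05 to 0.144. Plk1 (Polo-like kinase 1, which acts from mitotic entry to cytokinesis) had 0.594 and 0.743 CPM in the tumours, against 0.25 and 0.106 CPM in the KAP1-deleted livers and 0.0866 and 0.221 CPM in the control livers. The tumours were higher without overlap, and the spread between the KAP1-deleted livers rested on 11 and 5 counts. The fitted log2 fold change was 1.90 ± 0.56 (SE, adjusted p = 0.0672), and 0.00145 with the mouse as a block. Foxm1, a transcription factor of G2 and mitosis, had 0.718 and 0.552 CPM in the tumours, against 0.159 and 0.254 CPM in the KAP1-deleted livers and 0.0289 and 0.221 CPM in the control livers. Here tumour 1 was above tumour 2, and the log2 fold change was 1.61 ± 0.63 (SE, adjusted p = 0.136), with an adjusted p of 0.00576 with the mouse as a block. Aurka (Aurora A, a centrosome kinase) had 1.41 and 1.9 CPM in the tumours, against 0.795 and 1.17 CPM in the KAP1-deleted livers and 1.21 and 1.14 CPM in the control livers. Its tumours were higher than every liver by a small margin, and its log2 fold change was 0.75 ± 0.33 (SE, adjusted p = 0.181), with an adjusted p of 0.0489 with the mouse as a block. Over the alternatives the adjusted p spanned 0.00145 to 0.378 for Plk1, 0.00576 to 0.418 for Foxm1 and 0.0489 to 0.614 for Aurka.

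Among the 6 genes of the spindle checkpoint and anaphase, 5 rose over KAP1-deleted liver, with a median of 2.08 over all 6. Ttk (MPS1, the kinase that starts checkpoint signalling) had 1.09 and 1.77 CPM in the tumours, against 0.114 and 0.106 CPM in the KAP1-deleted livers and 0.231 and 0.204 CPM in the control livers. No tumour value came near a liver value, and Ttk had the largest log2 fold change of the 40 genes over KAP1-deleted liver, 3.67 ± 0.47 (SE, adjusted p = 0.00431), or 12.7-fold. Its KAP1-deleted livers held 5 counts each, so the size of that fold rests on few reads. Bub1, a checkpoint kinase at kinetochores, had 1.84 and 2.61 CPM in the tumours, against 0.227 and 0.403 CPM in the KAP1-deleted livers and 0.26 and 0.526 CPM in the control livers. The 2 tumours again stood apart from the livers, and the log2 fold change was 2.80 ± 0.46 (SE, adjusted p = 0.0105). Cdc20, the activator of the anaphase-promoting complex that the checkpoint holds back, had 1.26 and 2.25 CPM in the tumours, against 0.295 and 0.297 CPM in the KAP1-deleted livers and 0.202 and 0.492 CPM in the control livers. On the log2 scale the difference was 2.55 ± 0.50 (SE, adjusted p = 0.0192). Cdc20 was no longer called without tumour 2 (0.0844), KAP1-deleted liver 1 (0.0674) or KAP1-deleted liver 2 (0.0835), with a range over the alternatives of 2.63e-07 to 0.0844. Of the 31-base words of Cdc20, 74.5% are found in no other gene. Bub1b (BUBR1, a subunit of the checkpoint's inhibitor complex) had 2.53 and 2.8 CPM in the tumours, against 0.681 and 1.21 CPM in the KAP1-deleted livers and 1.18 and 0.934 CPM in the control livers. It rose by 1.49 ± 0.35 (SE, adjusted p = 0.0325) on the log2 scale, with tumours higher than every liver. The call of Bub1b was lost without tumour 1 (0.1), tumour 2 (0.111), KAP1-deleted liver 1 (0.196) or KAP1-deleted liver 2 (0.0547), and its adjusted p over the alternatives spanned 3.31e-05 to 0.196. Espl1 (separase, the protease that parts sister chromatids) had 0.953 and 0.914 CPM in the tumours, against 0.25 and 0.36 CPM in the KAP1-deleted livers and 0.231 and 0.34 CPM in the control livers. The 2 tumours were nearly equal, and the log2 fold change was 1.60 ± 0.40 (SE, adjusted p = 0.0419). Across the alternatives the adjusted p of Espl1 ran from 0.00173 to 0.242, and the call was lost without tumour 1 (0.145), tumour 2 (0.115), KAP1-deleted liver 1 (0.242) or KAP1-deleted liver 2 (0.158). Mad2l1 (MAD2, which binds CDC20) had 4.06 and 5.9 CPM in the tumours, against 2.66 and 2.48 CPM in the KAP1-deleted livers and 1.73 and 2.09 CPM in the control livers. Its liver levels were high relative to its tumour levels, and the log2 fold change was 0.95 ± 0.27 (SE, adjusted p = 0.0573), with an adjusted p of 0.00276 with the mouse as a block. Over the alternatives the adjusted p of Mad2l1 ran from 0.00276 to 0.316.

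Of the 8 kinetochore and chromosomal passenger genes, 4 were called, with a median log2 fold change of 1.74 over all 8. The kinetochore proteins CENP-E, CENP-F, NDC80 and NUF2 rose over KAP1-deleted liver, and the centromeric histone and the passenger subunits did not pass the test. Cenpf (a large protein of the outer kinetochore) had 7.01 and 13.5 CPM in the tumours, against 1.43 and 1.8 CPM in the KAP1-deleted livers and 1.3 and 2.31 CPM in the control livers. Tumour 2 was the highest library by a wide margin, and the log2 fold change was 2.66 ± 0.40 (SE, adjusted p = 0.00789). Cenpe (a kinesin that carries chromosomes to the spindle equator) had 5.19 and 7.66 CPM in the tumours, against 0.886 and 1.36 CPM in the KAP1-deleted livers and 1.18 and 1 CPM in the control livers. The estimated log2 fold change was 2.51 ± 0.32 (SE, adjusted p = 0.00453), with no overlap between tumours and livers. Nuf2, a subunit of the NDC80 complex that grips microtubules, had 1.89 and 2.93 CPM in the tumours, against 0.363 and 0.508 CPM in the KAP1-deleted livers and 0.289 and 0.357 CPM in the control livers. It rose by 2.46 ± 0.38 (SE, adjusted p = 0.00855) on the log2 scale. Its partner Ndc80 had 0.884 and 1.79 CPM in the tumours, against 0.273 and 0.339 CPM in the KAP1-deleted livers and 0.26 and 0.373 CPM in the control livers. The tumours differed by a ratio of 2.03, the widest among the members, and the log2 fold change was 2.11 ± 0.47 (SE, adjusted p = 0.029). Ndc80 was no longer called without tumour 2 (0.126), KAP1-deleted liver 1 (0.123) or KAP1-deleted liver 2 (0.109), with a range over the alternatives of 2.8e-05 to 0.126. limma-voom did not call it. Cenpa, the histone H3 variant that marks centromeres, had 3.08 and 4.63 CPM in the tumours, against 2 and 1.93 CPM in the KAP1-deleted livers and 1.5 and 1.24 CPM in the control livers. Here the KAP1-deleted livers were above the control livers without overlap, and the log2 fold change over KAP1-deleted liver was 0.97 ± 0.29 (SE, adjusted p = 0.0672), with 0.00303 with the mouse as a block and 0.00303 to 0.328 over the alternatives.

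The chromosomal passenger complex holds Aurora B with INCENP, survivin and borealin. Birc5 (survivin) had 0.828 and 1.09 CPM in the tumours, against 0.818 and 0.551 CPM in the KAP1-deleted livers and 0.462 and 0.407 CPM in the control livers. Tumour 1, with 60 counts, and KAP1-deleted liver 1, with 36, were nearly equal after scaling, and the log2 fold change was 0.48 ± 0.37 (SE, adjusted p = 0.425), the smallest of the 40. Incenp, the scaffold, had 1.86 and 1.77 CPM in the tumours, against 1.23 and 1.02 CPM in the KAP1-deleted livers and 1.07 and 1.22 CPM in the control livers. Its tumours were higher without overlap, by a log2 fold change of 0.70 ± 0.29 (SE, adjusted p = 0.156). Cdca8 (borealin) had 0.746 and 1.2 CPM in the tumours, against 0.341 and 0.403 CPM in the KAP1-deleted livers and 0.26 and 0.441 CPM in the control livers. Its log2 fold change was 1.37 ± 0.44 (SE, adjusted p = 0.083), with 0.00619 with the mouse as a block. Over the alternatives the adjusted p spanned 0.31 to 0.896 for Birc5, 0.0621 to 0.625 for Incenp and 0.00619 to 0.31 for Cdca8. Of the 4 passenger proteins, Aurkb alone passed the test over KAP1-deleted liver. Differences in fold change between members were not tested.

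Of the 10 kinesins all were called higher in tumour over KAP1-deleted liver, with a median log2 fold change of 2.17 and a range of 1.19 to 2.81. Kif18b passed the filter on low counts only through the tumours, and the other 9 were all called, with a median of 2.23. Kif11 (Eg5, which pushes spindle poles apart) had 6.86 and 9.9 CPM in the tumours, against 1.73 and 2.16 CPM in the KAP1-deleted livers and 1.96 and 1.85 CPM in the control livers. The 4 livers agreed closely and both tumours stood well above them, with a log2 fold change of 2.10 ± 0.27 (SE, adjusted p = 0.00434). Kif20a (MKLP2, which carries the passenger complex to the midzone) had 3.47 and 5.26 CPM in the tumours, against 1.04 and 0.699 CPM in the KAP1-deleted livers and 0.866 and 0.934 CPM in the control livers. It rose by 2.32 ± 0.34 (SE, adjusted p = 0.00702) on the log2 scale, and its exons overlap those of Cdc23 on the other strand over 29.3% of their length. Kif20b (MPP1, of cytokinesis) had 5.39 and 7.96 CPM in the tumours, against 1.93 and 1.31 CPM in the KAP1-deleted livers and 1.7 and 1.75 CPM in the control livers. The fitted log2 fold change was 2.04 ± 0.30 (SE, adjusted p = 0.0073). Kif4 (KIF4A, which shortens the midzone with PRC1) had 2.79 and 3.29 CPM in the tumours, against 0.659 and 0.636 CPM in the KAP1-deleted livers and 0.635 and 0.441 CPM in the control livers. It rose by 2.23 ± 0.32 (SE, adjusted p = 0.00638) on the log2 scale, and 15.1% of its exon length overlaps Pdzd11 on the other strand. These 4 were called under every alternative run. Kif2c (MCAK, which depolymerises microtubules at centromeres) had 1.02 and 1.94 CPM in the tumours, against 0.159 and 0.254 CPM in the KAP1-deleted livers and 0.404 and 0.373 CPM in the control livers. Its tumours stood far above the livers, and its control livers were above its KAP1-deleted livers. The log2 fold change over KAP1-deleted liver was 2.81 ± 0.48 (SE, adjusted p = 0.0116), or 7.04-fold. Over its alternatives the adjusted p of Kif2c ran from 1.56e-07 to 0.0551, and the call was lost without KAP1-deleted liver 1 (0.0551).

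The other 5 kinesins were called with less margin. Kif15, which works beside Eg5 on spindle poles, had 2.31 and 3.66 CPM in the tumours, against 0.863 and 0.763 CPM in the KAP1-deleted livers and 1.07 and 0.781 CPM in the control livers. Its livers overlapped between groups and lay below both tumours, and its log2 fold change was 1.87 ± 0.35 (SE, adjusted p = 0.0159). The call of Kif15 was lost without tumour 2 (0.0663), KAP1-deleted liver 1 (0.0592) or KAP1-deleted liver 2 (0.095), and its adjusted p over the alternatives spanned 1.23e-06 to 0.095. Kif23 (MKLP1, of the centralspindlin complex with RACGAP1) had 1.86 and 2.46 CPM in the tumours, against 0.954 and 0.932 CPM in the KAP1-deleted livers and 0.981 and 1.04 CPM in the control livers. Its 4 livers lay close together, and it had the smallest log2 fold change of the 10 kinesins, 1.19 ± 0.30 (SE, adjusted p = 0.0406). Kif23 was no longer called without tumour 1 (0.0742), tumour 2 (0.152), KAP1-deleted liver 1 (0.194) or KAP1-deleted liver 2 (0.257), with a range over the alternatives of 0.00141 to 0.257. Kif22 (KID, a motor on chromosome arms) had 1.44 and 1.94 CPM in the tumours, against 0.295 and 0.403 CPM in the KAP1-deleted livers and 0.289 and 0.662 CPM in the control livers. On the log2 scale the difference was 2.26 ± 0.46 (SE, adjusted p = 0.0212), and control liver 2 was its highest liver. Across the alternatives the adjusted p of Kif22 ran from 1.15e-06 to 0.0975, and the call was lost without tumour 1 (0.0622), tumour 2 (0.0862), KAP1-deleted liver 1 (0.0975) or KAP1-deleted liver 2 (0.0715). Kif14, a partner of PRC1 and citron kinase in cytokinesis, had 1.02 and 1.45 CPM in the tumours, against 0.0908 and 0.297 CPM in the KAP1-deleted livers and 0.144 and 0.204 CPM in the control livers. The estimated log2 fold change was 2.64 ± 0.55 (SE, adjusted p = 0.0224), against 4 and 14 counts in the KAP1-deleted livers. The call of Kif14 was lost without tumour 1 (0.0659), tumour 2 (0.0922) or KAP1-deleted liver 1 (0.0942), and its adjusted p over the alternatives spanned 1.3e-06 to 0.0942. Kif18b, which trims the plus ends of astral microtubules, had 0.456 and 0.533 CPM in the tumours, against 0.0908 and 0.169 CPM in the KAP1-deleted livers and 0.0866 and 0.102 CPM in the control livers. Its tumours held 33 and 28 counts and its livers 3 to 8, and the log2 fold change was 1.89 ± 0.49 (SE, adjusted p = 0.0462). Kif18b was no longer called without tumour 1 (0.141), tumour 2 (0.16), KAP1-deleted liver 1 (0.289), KAP1-deleted liver 2 (0.166), control liver 1 (0.0534) or control liver 2 (0.0507), with a range over the alternatives of 0.00317 to 0.289. DESeq2 did not call it.

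The 6 genes of spindle assembly and cytokinesis all rose over KAP1-deleted liver, with a median log2 fold change of 1.95. Prc1, which bundles the microtubules of the midzone, had 5.81 and 7.83 CPM in the tumours, against 0.999 and 0.932 CPM in the KAP1-deleted livers and 0.895 and 1.36 CPM in the control livers. The tumours were apart from the livers, and Prc1 had the smallest adjusted p of the 40 genes, with a log2 fold change of 2.82 ± 0.31 (SE, adjusted p = 0.00254). Tpx2, an activator of Aurora A on spindle microtubules, had 3.01 and 4.38 CPM in the tumours, against 0.431 and 0.678 CPM in the KAP1-deleted livers and 0.404 and 0.764 CPM in the control livers. It rose by 2.72 ± 0.41 (SE, adjusted p = 0.00805) on the log2 scale. Anln (anillin, a scaffold of the contractile ring) had 4.21 and 6.49 CPM in the tumours, against 1.41 and 1.5 CPM in the KAP1-deleted livers and 1.79 and 1.48 CPM in the control livers. Its log2 fold change was 1.87 ± 0.29 (SE, adjusted p = 0.00888), and the livers lay close together. Ect2, the exchange factor that switches on RhoA at the cleavage site, had 8.31 and 9.24 CPM in the tumours, against 3.72 and 2.54 CPM in the KAP1-deleted livers and 2.08 and 1.56 CPM in the control livers. Its 3 groups stood in order, tumours above KAP1-deleted livers above control livers, without overlap. Its log2 fold change over KAP1-deleted liver was 1.49 ± 0.27 (SE, adjusted p = 0.0139). Over its alternatives the adjusted p of Ect2 ran from 2.14e-06 to 0.108, and the call was lost without tumour 1 (0.0521), tumour 2 (0.0549) or KAP1-deleted liver 2 (0.108). Racgap1, the partner of KIF23 in centralspindlin, had 2.18 and 2.51 CPM in the tumours, against 0.613 and 0.636 CPM in the KAP1-deleted livers and 0.664 and 0.9 CPM in the control livers. It rose by 1.91 ± 0.32 (SE, adjusted p = 0.0106) on the log2 scale. The call of Racgap1 was lost without KAP1-deleted liver 1 (0.0634) or KAP1-deleted liver 2 (0.0719), and its adjusted p over the alternatives spanned 2.12e-06 to 0.0719. Nusap1, a microtubule binder near chromosomes, had 3.04 and 5.67 CPM in the tumours, against 0.931 and 1.23 CPM in the KAP1-deleted livers and 1.53 and 0.985 CPM in the control livers. The fitted log2 fold change was 2.0 ± 0.39 (SE, adjusted p = 0.0187). Nusap1 was no longer called without tumour 2 (0.0766), KAP1-deleted liver 1 (0.0777) or KAP1-deleted liver 2 (0.0508), with a range over the alternatives of 4.59e-08 to 0.0777. The exons of Prc1 overlap those of Rccd1 on the other strand over 11.1% of their length.

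Top2a (topoisomerase II alpha, which untangles sister chromatids) and Mki67 (Ki-67, a coat protein of mitotic chromosomes and the common proliferation marker) carried the most counts of the 40. Mki67 had 23.3 and 36.4 CPM in the tumours, against 5.04 and 6.84 CPM in the KAP1-deleted livers and 4.53 and 6.71 CPM in the control livers. Top2a had 17.9 and 27.5 CPM in the tumours, against 3.07 and 4.66 CPM in the KAP1-deleted livers and 2.89 and 4.57 CPM in the control livers. In both genes the tumours were the 2 highest libraries, tumour 2 was above tumour 1, and library 2 of each liver group was above library 1. Mki67 rose over KAP1-deleted liver by 2.33 ± 0.30 (SE, adjusted p = 0.00475) on the log2 scale, and Top2a by 2.55 ± 0.34 (SE, adjusted p = 0.00482). Together they made up 28.6% and 30.3% of the summed level of the 40 genes in the tumours, 20.9% and 26.3% in the KAP1-deleted livers and 20% and 26.1% in the control livers. Per kilobase of exon they were also the highest members, at 2.96 CPM per kb for Mki67 and 2.51 CPM per kb for Top2a as tumour means. Ccnb2 at 1.86, Ect2 at 1.63 and Ccnb1 at 1.14 CPM per kb came next. The lowest tumour means per kilobase were 0.107 for Espl1, 0.11 for Foxm1 and 0.119 CPM per kb for Kif14. In the livers, per kilobase, Mki67 was also high, at 0.591 CPM per kb in KAP1-deleted and 0.558 CPM per kb in control livers.

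**Figure D3:**
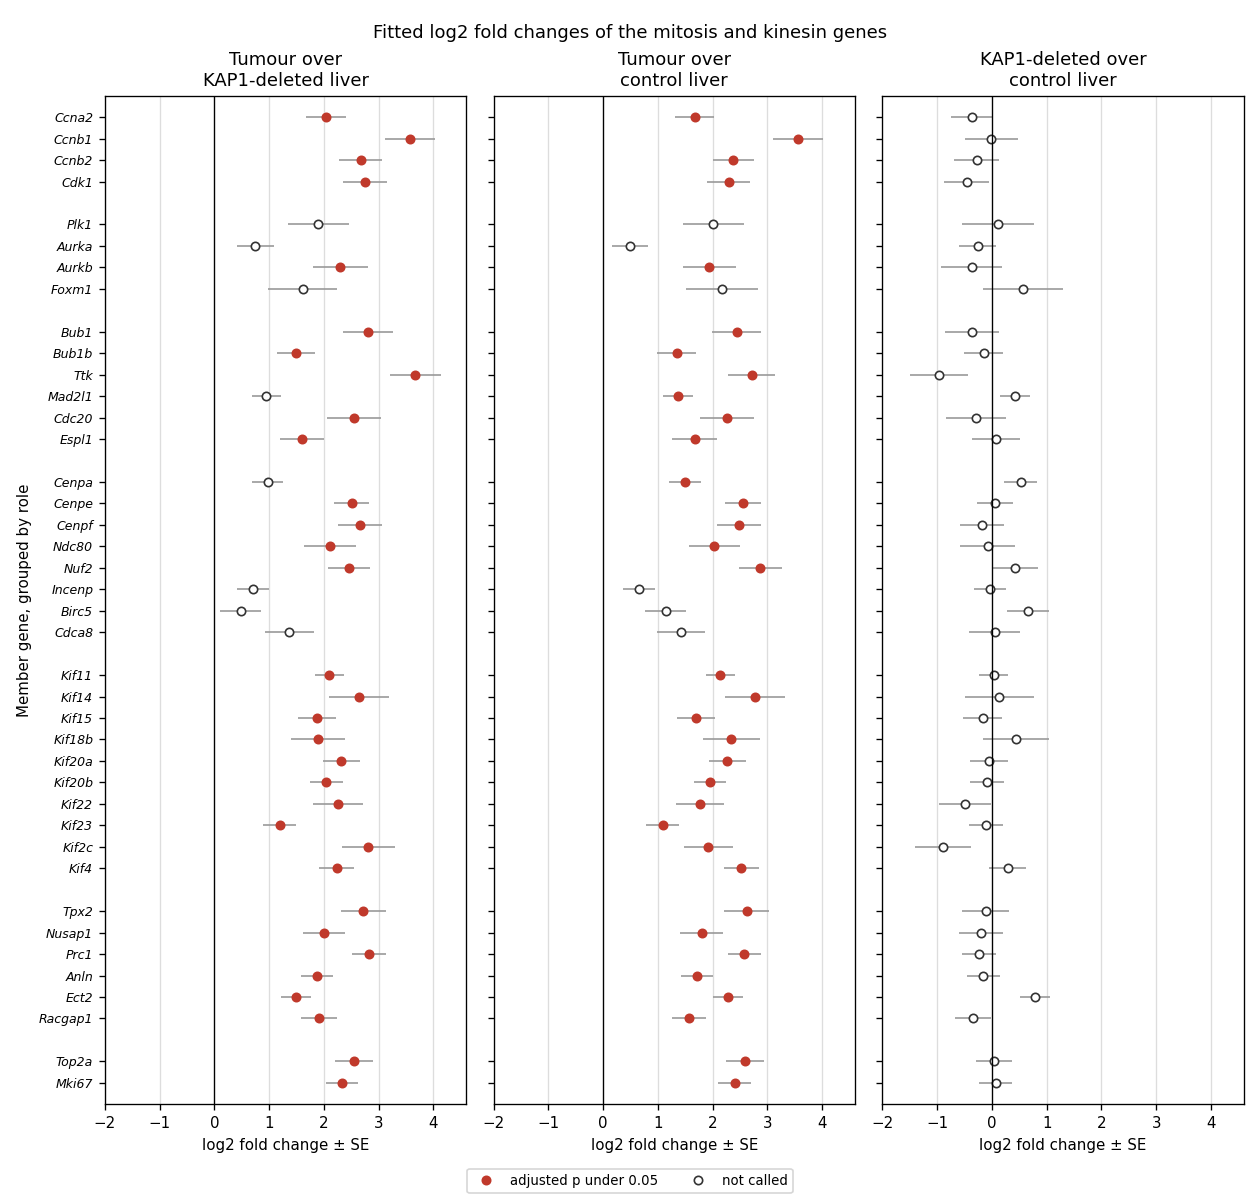
Fitted log2 fold changes with their standard errors for each of the 40 genes, in tumour over KAP1-deleted liver (left), tumour over control liver (middle) and KAP1-deleted over control liver (right), with filled circles where the adjusted p was under 0.05. All points in both tumour panels lie right of 0, 32 filled in the left and 34 in the middle panel, and those of the right panel scatter around 0 with none filled.

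Tumour over control liver uses the same 2 tumours, so it is not separate evidence, and its values stand here beside the ones above. All 40 genes were higher in both tumours than in both control livers, as were 26.5% of all genes tested, and 29.9% of all genes and no member were lower in both. Of the 40, 34 rose and none fell, against 6.15% of all genes called higher and 7.76% called lower. DESeq2 called 36 and limma-voom 32. The median log2 fold change was 2.08, with a range of 0.49 to 3.56, beside -0.02 over all genes tested. Both tumours were above all 4 livers in 40 of 40 members, and in 20.3% of all genes tested. By role, the calls were 4 of 4 cyclins and CDK1, 1 of 4 kinases and FOXM1, 6 of 6 checkpoint and anaphase genes, 5 of 8 kinetochore and passenger genes, 10 of 10 kinesins, 6 of 6 spindle and cytokinesis genes, and both Top2a and Mki67. Ccnb1 had the largest log2 fold change, 3.56 ± 0.45 (SE, adjusted p = 0.00304), followed by Nuf2 at 2.87 ± 0.39 (SE, adjusted p = 0.00428). Mki67 rose by 2.40 ± 0.30 (SE, adjusted p = 0.00314), Top2a by 2.59 ± 0.34 (SE, adjusted p = 0.00336), Kif11 by 2.14 ± 0.27 (SE, adjusted p = 0.00313) and Prc1 by 2.58 ± 0.30 (SE, adjusted p = 0.00227) on the log2 scale. Each of these was called under every alternative run, as were 17 of the 34 in all. Kif23 (adjusted p = 0.0468 in edgeR's fit of all 6 libraries) was not called by limma-voom (0.0504). Nor was it with edgeR on only the 4 libraries compared (0.0898). Ndc80 was not called by limma-voom. The remaining losses were in fits without 1 library. Without tumour 2 the count of members called fell to 17, without tumour 1 it was 26, without control liver 1 it was 25, without control liver 2 it was 23, and without either KAP1-deleted liver it was 32.

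The members that edgeR's quasi-likelihood test called over neither liver group were Plk1, Aurka, Foxm1, Incenp, Birc5 and Cdca8. Their log2 fold changes over control liver were 2.01 ± 0.56 (SE, adjusted p = 0.0525) for Plk1, 2.17 ± 0.66 (SE, adjusted p = 0.0662) for Foxm1 and 0.49 ± 0.33 (SE, adjusted p = 0.36) for Aurka. Incenp gave 0.66 ± 0.29 (SE, adjusted p = 0.168), Birc5 1.14 ± 0.38 (SE, adjusted p = 0.0899) and Cdca8 1.42 ± 0.44 (SE, adjusted p = 0.0702). The adjusted p of Foxm1 was 0.0271 without control liver 2, which leaves control liver 1 with its 1 count, within a range over the alternatives of 0.00214 to 0.227. DESeq2 called Plk1 (adjusted p = 0.0456) and Foxm1 (adjusted p = 0.0484) over control liver, and Plk1 was also called with edgeR on only the 4 libraries compared (0.045). In edgeR's fit of all 6 libraries Mad2l1 and Cenpa passed the test over control liver and not over KAP1-deleted liver, and neither was called in KAP1-deleted over control liver, which is the difference between those fold changes. Over KAP1-deleted liver DESeq2 called both Mad2l1 (adjusted p = 0.0171) and Cenpa (0.0266), as did edgeR on only the 4 libraries compared (0.0372 and 0.0441). Mad2l1 had a log2 fold change of 1.37 ± 0.27 (SE, adjusted p = 0.0165) over control liver. Across the alternatives the adjusted p of Mad2l1 ran from 0.000164 to 0.0701, and the call was lost without tumour 2 (0.0701). Cenpa had 1.49 ± 0.29 (SE, adjusted p = 0.0162). The call of Cenpa was lost without tumour 2 (0.0686) or control liver 2 (0.0661), and its adjusted p over the alternatives spanned 0.000117 to 0.0686. Ect2 had 2.28 ± 0.28 (SE, adjusted p = 0.0027) and was called under every alternative run.

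KAP1-deleted over control liver compares liver tissue with and without the deletion. Both KAP1-deleted livers came from the mice that bore the tumours. The control livers came from other mice, of which no tumour was sequenced. The deletion and the bearing of a tumour therefore cannot be told apart here. None of the 40 mitotic genes was called in either direction by edgeR, against 0.239% of all genes called higher and 0.0968% called lower. DESeq2 and limma-voom also called none, and 1 member had an unadjusted p under 0.05 in edgeR, against 955 of all 17558 genes tested. The median log2 fold change was -0.08, with a range of -0.96 to 0.79, and 16 members lay above 0. The summed level was 41.3 ± 3.48 CPM in the KAP1-deleted livers and 40.2 ± 4.25 CPM in the control livers (SD, n = 2 each), a ratio of 1.03. Of the 40, 6 were higher in both KAP1-deleted livers than in both control livers, against 16.7% of all genes tested, and 4 were lower in both, against 14.6%. The member with an unadjusted p under 0.05 was Ect2, whose levels were 3.72 and 2.54 CPM in the KAP1-deleted livers and 2.08 and 1.56 CPM in the control livers. On the log2 scale the difference was 0.79 ± 0.28 (SE, unadjusted p = 0.0209, adjusted p = 0.661). Ttk had 0.114 and 0.106 CPM in the KAP1-deleted livers, against 0.231 and 0.204 CPM in the control livers. The estimated log2 fold change was -0.96 ± 0.53 (SE, unadjusted p = 0.109) on 5 and 5 counts against 8 and 12. Cenpa gave 0.53 ± 0.30 (SE, unadjusted p = 0.115) and Kif2c -0.89 ± 0.51 (SE, unadjusted p = 0.12), both without overlap between the groups. Mki67 differed by 0.07 ± 0.30 and Top2a by 0.04 ± 0.33 on the log2 scale (SE). With 2 livers a group these intervals are wide, and a missed threshold does not show that the groups were alike. This comparison shares its control livers with tumour over control liver and its KAP1-deleted livers with tumour over KAP1-deleted liver.

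Libraries of a group differed in the levels of the 40 genes. In the tumours, 37 of 40 were higher in tumour 2 than in tumour 1, with a median ratio of 1.45 and a range of 0.769 for Foxm1 to 2.03 for Ndc80. Of all genes tested, 49.7% were higher in tumour 2. In the KAP1-deleted livers, 26 were higher in library 2, with a median ratio of 1.26 and a range of 0.424 for Plk1 to 3.27 for Kif14, against 49.0% of all genes. In the control livers, 25 were higher in library 2, with a median ratio of 1.19 and a range of 0.628 for Ccna2 to 7.65 for Foxm1, against 50.5% of all genes. The wide ends of these liver ranges belong to members with few counts. The median log2 fold change of the members over KAP1-deleted liver was 2.34 without tumour 1 and 1.80 without tumour 2. With 1 tumour per mouse, tumour and mouse cannot be told apart.

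Other genes of the cell cycle were read from further lists. A list of 77 further mitotic genes was chosen with earlier results of these data known. In tumour over KAP1-deleted liver 40 of them rose and 1 fell, against 4.80% of all genes called higher and 6.64% called lower. Their median log2 fold change was 1.21. Leaving out single libraries took the number that rose to between 17 and 41, lowest without KAP1-deleted liver 2. Hmmr, a spindle protein that binds hyaluronan, had 4.68 and 7.27 CPM in the tumours, against 0.818 and 0.975 CPM in the KAP1-deleted livers and 0.779 and 0.866 CPM in the control livers. Its log2 fold change was 2.73 ± 0.31 (SE, adjusted p = 0.00278). Dsn1, a kinetochore subunit of the MIS12 complex, rose by 2.76 ± 0.30 (SE, adjusted p = 0.00252), and Dlgap5 (HURP, a stabiliser of spindle microtubules) by 2.87 ± 0.35 (SE, adjusted p = 0.00352) on the log2 scale. The gene that fell was Ccnf (cyclin F, the substrate receptor of an SCF ubiquitin ligase), with 1.77 and 2.44 CPM in the tumours, against 7.74 and 6.89 CPM in the KAP1-deleted livers and 17 and 15.4 CPM in the control livers. The 3 groups stood in order without overlap, and the log2 fold change was -1.80 ± 0.23 (SE, adjusted p = 0.00411) over KAP1-deleted liver and -2.95 ± 0.23 (SE, adjusted p = 0.000651) over control liver. It was -1.15 ± 0.22 (SE, adjusted p = 0.118) in KAP1-deleted over control liver, which was not called. Over control liver, 34 of the 77 rose and 2 fell, against 6.15% of all genes called higher and 7.76% called lower.

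The anaphase-promoting complex is the ubiquitin ligase that CDC20 activates. The 16 genes listed for it include its regulators Fzr1 and Fbxo5. None of the 16 was called in tumour over KAP1-deleted liver by edgeR, DESeq2 or limma-voom. Of all genes tested, edgeR called 4.80% higher and 6.64% lower. In edgeR 1 of the 16 had an unadjusted p under 0.05, against 5104 of all 17558 genes tested. The median log2 fold change of the 16 was -0.02. Anapc1, a scaffold subunit, had 81.9 and 79.6 CPM in the tumours, against 68.1 and 64.4 CPM in the KAP1-deleted livers and 71.5 and 63.1 CPM in the control livers. The log2 fold change was 0.29 ± 0.16 (SE, adjusted p = 0.292), with the tumours above the livers by a small margin. Anapc11, the RING subunit, had 4.74 and 4.46 CPM in the tumours, against 6.68 and 7.37 CPM in the KAP1-deleted livers and 5.57 and 7.32 CPM in the control livers, the tumours being the lower group. The fitted log2 fold change was -0.61 ± 0.22 (SE, adjusted p = 0.109). Anapc4 gave 0.30 ± 0.19 (SE, adjusted p = 0.335) and Cdc16 0.25 ± 0.17 (SE, adjusted p = 0.355). Of 22 genes of the DREAM and RB pathway 2 rose and none fell, against 4.80% of all genes called higher and 6.64% called lower. Their median was 0.10. Rbl1 (p107, a pocket protein of DREAM) had 5.56 and 8.46 CPM in the tumours, against 2 and 1.86 CPM in the KAP1-deleted livers and 2.25 and 2.29 CPM in the control livers. On the log2 scale the difference was 1.86 ± 0.27 (SE, adjusted p = 0.00702), with no overlap between tumours and livers. Cdkn2c (p18, an inhibitor of CDK4 and CDK6) had 3.48 and 3.9 CPM in the tumours, against 1.18 and 0.805 CPM in the KAP1-deleted livers and 2.11 and 1.94 CPM in the control livers. It rose by 1.89 ± 0.29 (SE, adjusted p = 0.00805) on the log2 scale, and its control livers lay between the tumours and the KAP1-deleted livers. Over its alternatives the adjusted p of Cdkn2c ran from 1.57e-07 to 0.0651, and the call was lost without KAP1-deleted liver 2 (0.0651). E2f7 gave 1.31 ± 0.47 (SE, adjusted p = 0.112) and E2f6 0.44 ± 0.21 (SE, adjusted p = 0.204), neither called.

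A further list held other kinesins, for the most part motors of vesicles, organelles or cilia. It also held Kif2a and Kif2b, of the same family as Kif2c, so not all act outside mitosis. Of 28 listed, 23 passed the filter, 1 rose and 1 fell in tumour over KAP1-deleted liver, with a median log2 fold change of -0.06. Of all genes tested, 4.80% were called higher and 6.64% lower there, so calls in this list were about as frequent as among all genes. Kif26b, a kinesin without motor activity that acts in kidney development and cell adhesion in mice, had 21.9 and 11.3 CPM in the tumours, against 0.908 and 0.424 CPM in the KAP1-deleted livers and 0.664 and 0.357 CPM in the control livers. Both tumours stood far above every liver, and the log2 fold change was 4.64 ± 0.50 (SE, adjusted p = 0.00278), larger than that of any of the 40 mitotic genes. Kif12 had 0.0276 and 0.0571 CPM in the tumours, against 0.273 and 0.275 CPM in the KAP1-deleted livers and 0.231 and 0.204 CPM in the control livers, which is a few counts in each tumour. It fell with an adjusted p of 0.029. The call of Kif12 was lost without tumour 1 (0.166), tumour 2 (0.0737), KAP1-deleted liver 1 (0.123) or KAP1-deleted liver 2 (0.164), and its adjusted p over the alternatives spanned 0.00301 to 0.166. DESeq2 did not call Kif12 (adjusted p = 0.0567) and called Kif1c lower (adjusted p = 0.0224), so which kinesin fell depends on the tool. Kif1c, a motor of vesicle transport, gave -0.90 ± 0.25 (SE, adjusted p = 0.0523) and Kifc3, a minus-end motor, -0.76 ± 0.25 (SE, adjusted p = 0.0889).

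Of 50 genes of the G1 to S transition and DNA replication, 49 passed the filter. In tumour over KAP1-deleted liver 6 rose and 1 fell, against 4.80% of all genes called higher and 6.64% called lower. Their median log2 fold change was 0.33. Mcm6, a subunit of the replicative helicase, had 10.7 and 7.71 CPM in the tumours, against 3.97 and 3.6 CPM in the KAP1-deleted livers and 4.65 and 4.41 CPM in the control livers. It rose by 1.28 ± 0.23 (SE, adjusted p = 0.014) on the log2 scale. Across the alternatives the adjusted p of Mcm6 ran from 2.79e-05 to 0.106, and the call was lost without tumour 1 (0.0652), KAP1-deleted liver 1 (0.0628) or KAP1-deleted liver 2 (0.106). Dbf4, the activator of the replication kinase CDC7, rose by 1.44 ± 0.22 (SE, adjusted p = 0.00855). The call of Dbf4 was lost without KAP1-deleted liver 1 (0.0523) or KAP1-deleted liver 2 (0.0746), and its adjusted p over the alternatives spanned 1.88e-06 to 0.0746. Uhrf1, which guides maintenance of DNA methylation, rose by 2.30 ± 0.41 (SE, adjusted p = 0.0133). Uhrf1 was no longer called without tumour 1 (0.0721) or KAP1-deleted liver 1 (0.0743), with a range over the alternatives of 1.54e-06 to 0.0743. Mcm10, which helps to start the helicase, was the gene that fell, with 5.76 and 7.12 CPM in the tumours, against 23 and 27.2 CPM in the KAP1-deleted livers and 47.1 and 53.8 CPM in the control livers. As with Ccnf, the tumours were lowest, the control livers highest and no groups overlapped. The estimated log2 fold change was -1.96 ± 0.20 (SE, adjusted p = 0.0019) over KAP1-deleted liver and -2.97 ± 0.20 (SE, adjusted p = 0.000426) over control liver, and -1.01 ± 0.19 (SE, adjusted p = 0.117) in KAP1-deleted over control liver, where it was not called. The differences between these lists and the 40 genes were not tested.

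**Figure D4:**
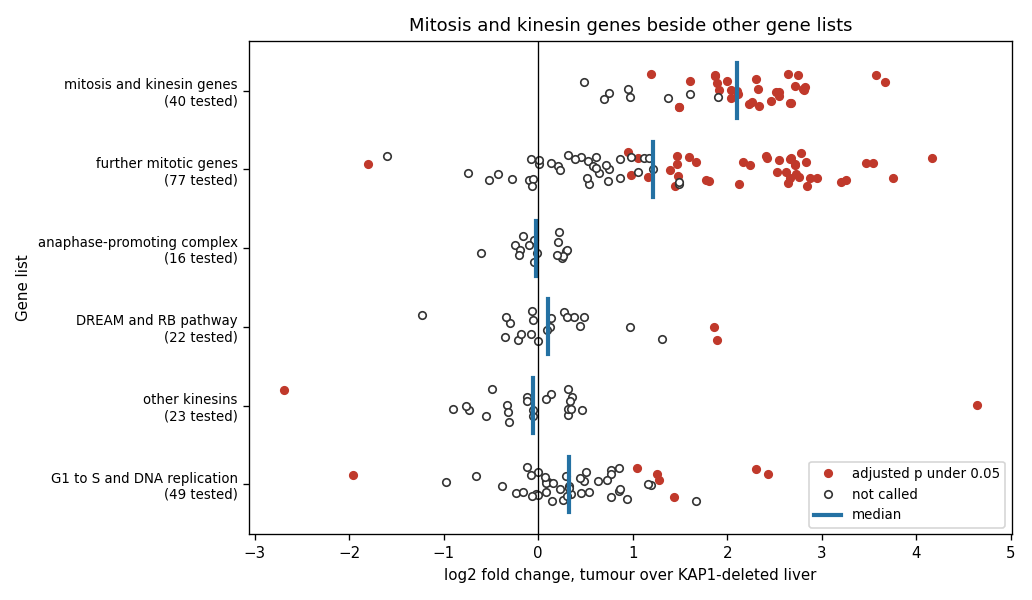
Log2 fold changes in tumour over KAP1-deleted liver for each tested gene of the 40 mitosis and kinesin genes and of the further lists (rows), with filled circles where the adjusted p was under 0.05 and a bar at each list's median. The medians are 2.11 for the 40 genes, 1.21 for further mitotic genes, -0.02 for the anaphase-promoting complex, 0.10 for DREAM and RB genes, -0.06 for other kinesins and 0.33 for G1 to S genes.

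Some markers of liver cell types were called in tumour over KAP1-deleted liver as well. Of all genes tested, 4.80% were called higher and 6.64% lower there. Hepatocyte markers summed to 22600 and 41200 CPM in the tumours, 61700 and 74000 CPM in the KAP1-deleted livers and 69700 and 84600 CPM in the control livers, and 1 of 6 (Apoc3) was called lower over KAP1-deleted liver, with none called higher. Most of these sums was Alb, with 18200 and 34900 CPM in the tumours and a log2 fold change of -1.16 ± 0.44 (SE, adjusted p = 0.126). Macrophage markers summed to 122 and 146 CPM in the tumours, 310 and 298 CPM in the KAP1-deleted livers and 305 and 297 CPM in the control livers, and 3 of 6 were called lower. These were Clec4f, Vsig4 and Marco, markers of Kupffer cells. The other macrophage markers gave log2 fold changes of -0.58 ± 0.20 for Csf1r, -0.23 ± 0.25 for Adgre1 and -0.21 ± 0.20 for Cd68 (SE). Endothelial markers summed to 187 and 160 CPM in the tumours, 241 and 241 CPM in the KAP1-deleted livers and 217 and 238 CPM in the control livers, with 0 of 6 called by edgeR and 4 with an unadjusted p under 0.05. Lymphocytes divide when activated, and their markers summed to 3.12 and 5.67 CPM in the tumours, 1.73 and 6.70 CPM in the KAP1-deleted livers and 2.54 and 1.90 CPM in the control livers. Ms4a1 alone had 3.92 CPM in KAP1-deleted liver 2. Over KAP1-deleted liver the log2 fold changes (± SE) were 2.04 ± 0.55 for Cd8a, 1.49 ± 0.53 for Nkg7 and 1.48 ± 0.65 for Cd4. Cd3e gave 1.28 ± 0.64 and Cd3d 0.51 ± 0.67. The B cell markers tested were lower, Ms4a1 by -1.82 ± 0.86 and Cd79a by -1.24 ± 0.57. None of the 7 lymphocyte markers tested was called over KAP1-deleted liver by edgeR, and 2 had an unadjusted p under 0.05. Cd8a was called higher over control liver. Of all 17558 genes tested, 5104 had an unadjusted p under 0.05 over KAP1-deleted liver.

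Erythroid precursors also divide. Hba-a1, an alpha globin gene with a near-identical copy that could share its reads, had 34.2 and 40.6 CPM in the tumours, against 77.6 and 188 CPM in the KAP1-deleted livers and 124 and 85.2 CPM in the control livers. It fell by 1.83 ± 0.41 (SE, adjusted p = 0.035) on the log2 scale over KAP1-deleted liver. Alas2, the erythroid enzyme that starts haem synthesis, gave -0.66 ± 0.24 (SE, adjusted p = 0.12), Klf1, an erythroid transcription factor, -0.82 ± 0.51 (SE, adjusted p = 0.328), and Slc4a1, the anion exchanger of red cells, -0.98 ± 0.72 (SE, adjusted p = 0.403). Stellate cell and fibroblast markers summed to 179 and 262 CPM in the tumours, 194 and 255 CPM in the KAP1-deleted livers and 189 and 277 CPM in the control livers. Over KAP1-deleted liver 1 of 8 (Des) was called lower and none higher, and 4 of 8 had a log2 fold change above 0. These were Col3a1 (1.26 ± 0.65), Acta2 (1.24 ± 0.56), Col1a1 (1.14 ± 0.71) and Col1a2 (0.46 ± 0.42, SE). Lrat (-1.49 ± 0.43), Des (-1.42 ± 0.34), Pdgfrb (-0.67 ± 0.27) and Reln (-0.52 ± 0.45) lay below 0. Cholangiocyte markers summed to 0.525 and 2.38 CPM in the tumours, 4.81 and 5.13 CPM in the KAP1-deleted livers and 3.03 and 2.78 CPM in the control livers. Sox9 alone had 3.97 and 3.94 CPM in the KAP1-deleted livers. Of 5 markers 3 passed the filter, with log2 fold changes below 0 over KAP1-deleted liver and none called. Krt19, not tested, was higher in the tumours, at 0.11 and 0.59 CPM against 0.0227 and 0.169 CPM in the KAP1-deleted livers. Of neutrophil markers, Ly6g was at 0 in all 6 libraries, and the sums were 3.05 and 2.82 CPM in the tumours, 5.43 and 5.25 CPM in the KAP1-deleted livers and 4.97 and 2.89 CPM in the control livers. Exocrine pancreas markers summed to 9.24 and 38.3 CPM in the tumours, 5 and 29.2 CPM in the KAP1-deleted livers and 5.48 and 8.22 CPM in the control livers. Cela1 alone had 9.24 and 37.9 CPM in the tumours. Prss2, Ctrb1, Pnlip, Cpa1 and Amy2a5 stood apart in KAP1-deleted liver 2, at 2.97 to 5.95 CPM. The part of these cell types in the levels of the mitotic genes was not tested.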

How the data were processed

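RNA of 2 tumours, 2 KAP1-deleted livers and 2 control livers was made into stranded libraries (TruSeq), per the labels' protocols. Their extraction text speaks of cell lines, and the samples are labelled as tissue. The deposited tables hold raw read counts by Ensembl gene, which the authors made with TopHat and HTSeq 0.6.1 on build mm9, per the submitters' processing notes. The sources used here do not give the TopHat version, the gene annotation, the strand setting or any read filter. Entries naming no gene (20.9% to 36.7% of the counted reads) entered neither library sizes nor tests.

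The members and the further gene lists were chosen with earlier results of these data known. Symbols came from the Ensembl identifiers (GENCODE M21, GRCm38) for 32919 of 37991 genes. Exon lengths, exon overlaps and 31-base words came from the same annotation, promoters from RefSeq GRCm38.p6, and no mm9 coordinates were used. The tests used edgeR 4.0.16 (R 4.3.3), a filterByExpr filter set by group (at least 10 counts, 15 in total), TMM scaling, and a quasi-likelihood F test over all 6 libraries with 1 mean per group and 3 residual degrees of freedom. The p-values were adjusted by Benjamini-Hochberg over 17558 genes, with a threshold of 0.05, and the common biological coefficient of variation was 0.23. Levels are CPM with TMM scaling, and standard errors are those of the fitted log2 fold change. The alternatives were DESeq2 1.42.0, limma 3.58.1 (voom), other scalings and filters, fewer libraries, and a block for replicate number or mouse. The fits were tested on simulated counts.

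Tumour and KAP1-deleted liver of the same number are paired by the mouse code in their labels, and their deviations from the group means correlated at 0.165. The control livers are unpaired, and their numbers are only names. Libraries of 1 group differed beyond sampling noise (a chi-square over its degrees of freedom of 149 in the tumours, 86.3 in the KAP1-deleted livers and 336 in the control livers). The p-values reflect only how these samples, 2 a group, spread. All libraries carry the same batch label. The text names all 40 members, from each further list up to 4 genes with the smallest adjusted p in tumour over KAP1-deleted liver and those called lower, and in KAP1-deleted over control liver the 4 members with the smallest unadjusted p. Mki67 and Top2a there, and the marker genes named, were chosen outside that rule. The erythroid markers are given without a summed level, because one of them is not reported here.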

Additional observations from a re-analysis of the deposited data

How the results depend on the processing

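With 2 libraries per group, leaving out 1 library assumes that the lone sample of its group varies like the other groups. In tumour over KAP1-deleted liver, leaving out single libraries gave 19 to 33 members called higher (main 32), 17 to 41 further mitotic genes, 1 or 2 DREAM and RB genes and 1 to 7 G1 to S genes. The members' median log2 fold change ran from 1.80 to 2.34, and 640 to 2715 genes were called in all. In tumour over control liver these fits gave 17 to 32 members, a median of 1.84 to 2.33 and 1103 to 2621 genes. In KAP1-deleted over control liver they gave 30 to 75 genes and no member, and the median of the members ran from -0.23 to 0.17. That median changed sign to 0.17 without control liver replicate 2 and to 0.05 without KAP1-deleted liver replicate 1.

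With no filter on low counts, 3819 genes were called in tumour over KAP1-deleted liver, 4115 in tumour over control liver and 571 in KAP1-deleted over control liver, and 12 G1 to S genes were called higher. A mean CPM of at least 1 left 21 further mitotic genes called, a members' median of 2.30 over control liver and 34 genes in KAP1-deleted over control liver, with fewer genes tested. DESeq2 called 10 G1 to S genes higher and 230 genes in KAP1-deleted over control liver, where limma-voom called 27 and the 4 libraries alone 20. The paired fit with the mouse as a replicate block called 4476 genes in tumour over KAP1-deleted liver, 38 members and 16 G1 to S genes. A replicate block by number over all 6 libraries called 97 genes in KAP1-deleted over control liver, with 34 and 35 members higher in tumour over KAP1-deleted and over control liver. The cause of these shifts was not tested. Low counts in liver limit the fold changes of Kif18b, Ttk, Kif14, Plk1 and Foxm1.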
